A study of Homo sapiens with 2 samples.

Results

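The granule of a mast cell is a store of active proteases packed on a proteoglycan, and 9 genes for its proteases and proteoglycan proteins were followed in 2 subclones of the HMC1 cell line. They are the carboxypeptidase gene CPA3, the tryptase genes TPSAB1, TPSB2, TPSD1 and TPSG1, the chymase gene CMA1, the cathepsin G gene CTSG, PRG2 for a basic proteoglycan protein, and SRGN for the serglycin core. All probe sets that the platform annotation gives to these genes were taken, by gene identifier, which made 17 of the 54675 probe sets on the array, 2 of them shared by TPSAB1 and TPSB2. HMC1 is an established human line from a patient with mast cell leukaemia, and it grows as neoplastic, immature mast cells. Flow sorting with an antibody to the adhesion receptor CD2 had given a CD2-positive subclone and a CD2-negative subclone, and RNA of each was hybridised to 1 Affymetrix U133 Plus 2.0 array. The labels name the sort for both subclones and no other treatment. Each group is therefore 1 RNA sample of 1 subclone, and a difference between the arrays cannot be told apart from a difference between any pair of cultures of this line. No p-value or error between replicates could be had for any value below.

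Serglycin is a short protein whose serine-glycine repeat carries long, highly charged chains of heparin or chondroitin sulfate. In mouse mast cells these chains hold the positively charged proteases in the granule, and loss of serglycin or of heparin sulfation empties the granule of several of them. Mature human mast cells are classed by protease: all contain tryptase, and the connective tissue type adds chymase, carboxypeptidase A3 and cathepsin G.

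The values are intensities normalised by the authors with RMA, on a linear scale and rounded to whole numbers, and differences are given on the log2 scale as CD2-positive minus CD2-negative. The floor for comparing a probe set or gene was an intensity of 64 (log2 6) on at least 1 array, and it was counted as higher or lower at a 2-fold difference, a log2 difference of 1. CD2, which checks the labels, read 219 in CD2-positive and 13 in CD2-negative cells. Probe sets for Bacillus transcripts, absent from human RNA, read 1 to 4. The median log2 difference of the 5583 probe sets above the floor was -0.04 and 95% of them lay between -0.68 and 0.72. All 18 probe sets of the spiked hybridisation controls had negative differences, with a median of -0.18.

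Of the granule genes, CPA3 differed most, the tryptases and PRG2 were moderately higher in the CD2-positive subclone, and SRGN read nearly alike in both. Of the 17 probe sets 11 reached the floor, and they stood for 5 of the 9 genes: CPA3, TPSAB1, TPSB2, PRG2 and SRGN. CPA3 alone of these 5 was at least 2-fold higher, against 1.21% of the 3564 genes above the floor, and none was at least 2-fold lower, against 0.758%. Of the 11 probe sets 10 had a positive difference, against 43.3% of all probe sets above the floor, but 7 of the 11 read tryptase and share sequence, so they are not separate observations. Counted by gene, all 5 were positive, against 41.9% of genes. These 5 are not separate observations either, because the sets of TPSAB1 and TPSB2 can bind transcripts of both genes. SRGN was positive by 0.02 only, and its other bright set had -0.04. The median log2 difference was 0.61 over the 11 probe sets, and also 0.61 over the 5 genes, against -0.05 over all genes above the floor. Both member medians are the value of the same tryptase set, 210084_x_at.

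**Figure D1:**
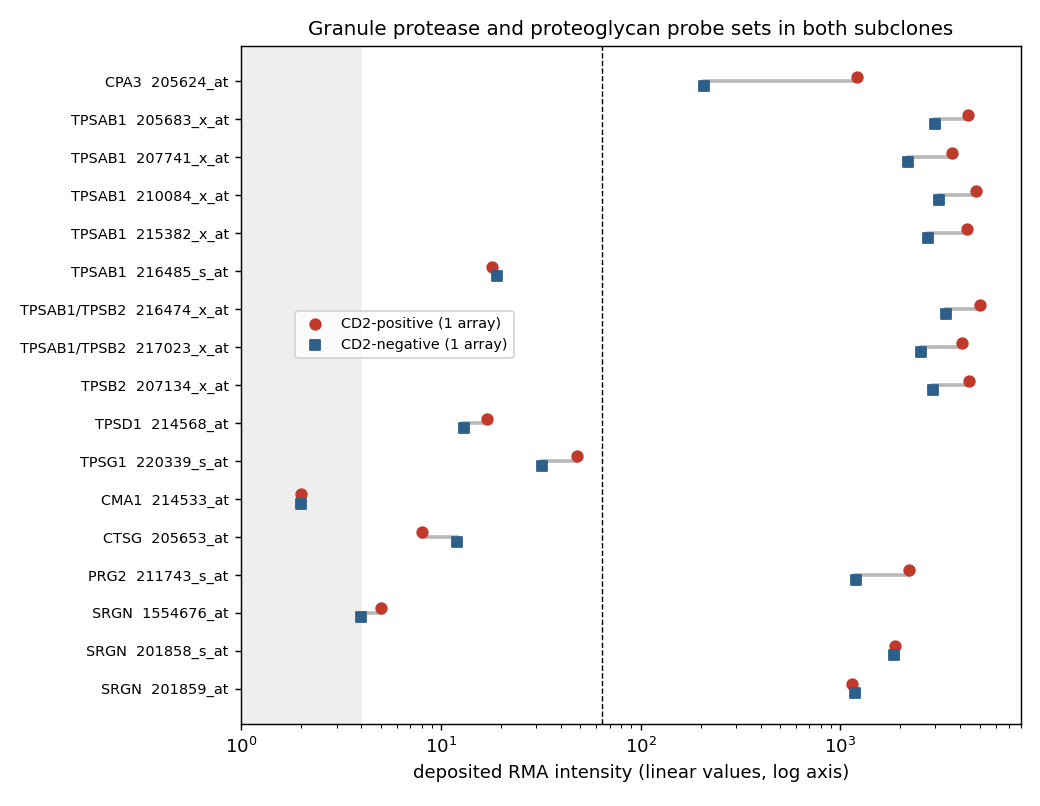
Deposited intensity (log axis) of the 17 probe sets of granule protease and proteoglycan genes in the CD2-positive (circles) and CD2-negative (squares) subclone, 1 array each. The dashed line is the floor of 64 and the grey band, up to 4, is the range of the Bacillus probe sets; CPA3 has the widest gap (1220 against 207), and the 7 bright tryptase sets keep similar gaps.

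CPA3 encodes mast cell carboxypeptidase A3, a zinc enzyme that removes aromatic and aliphatic residues from the C-terminus of peptides and is stored in the granule as the mature enzyme. Its probe set 205624_at read 1220 in CD2-positive and 207 in CD2-negative cells, a 5.89-fold difference (log2 difference 2.56). Both values lay well above the floor, and rounding of the deposited values leaves the log2 difference at 2.56. CPA3 stood 8th of the 3564 genes by size of positive difference. It was measured by 1 probe set only, so no other set of the gene could be set beside it. The 20 nearest genes above the floor on chromosome 3, 10 on each side, had a median log2 difference of -0.07 and ranged from -0.47 to 0.22, with none past 2-fold.

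The 5 genes whose log2 difference was nearest to that of CPA3 were TNS1 (2.60), GZMM (2.60), ANXA2 (2.66), PRUNE2 (2.85) and CCL18 (1.93). Likeness here is the gap between log2 differences over 2 samples, from 0.04 for TNS1 and GZMM to 0.63 for CCL18, and says only that the ratio was similar. TNS1 read 109 in CD2-positive and 18 in CD2-negative cells. GZMM, the gene of the lymphocyte protease granzyme M, read 103 in CD2-positive and 17 in CD2-negative cells. CPA3 differed from these 5 in that its CD2-negative reading, 207, was itself far above the floor of 64, whereas theirs were 9 to 52.

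Promoter sequence is shown for CPA3, the member with the largest difference, and for CMA1, a mast cell protease gene that read no higher than the Bacillus sets on either array. Each run is the 250 bases before the annotated start, from RefSeq on GRCh38.p14, written 5′ to 3′ along the gene: chr3:148865046-148865295 on the plus strand for CPA3 and chr14:24508266-24508515 on the minus strand for CMA1. Capitals mark every GATA (or TATC, its reverse complement) and every CANNTG, the core letters bound by GATA-type and basic helix-loop-helix factors; no GATA match overlapped a CANNTG match.
CPA3: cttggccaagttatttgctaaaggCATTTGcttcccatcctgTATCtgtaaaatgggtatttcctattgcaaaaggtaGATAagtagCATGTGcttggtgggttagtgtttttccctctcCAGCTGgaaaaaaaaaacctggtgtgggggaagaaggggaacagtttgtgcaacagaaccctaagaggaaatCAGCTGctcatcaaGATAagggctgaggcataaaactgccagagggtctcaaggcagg
CMA1: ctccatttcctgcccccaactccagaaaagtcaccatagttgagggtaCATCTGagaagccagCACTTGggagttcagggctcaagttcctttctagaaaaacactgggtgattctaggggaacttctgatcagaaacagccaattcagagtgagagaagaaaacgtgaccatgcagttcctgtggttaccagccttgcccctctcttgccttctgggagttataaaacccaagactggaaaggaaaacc

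The CPA3 window held 3 GATA matches, whose first bases lie at -208, -172 and -44 from the start, and 4 CANNTG matches, at -226, -163, -130 and -58. The one at -163 is CATGTG, and CACGTG did not occur. The CMA1 window held 0 GATA and 2 CANNTG matches, at -202 and -187. In the other 2 member windows found in the RefSeq table, TPSG1 held 2 GATA and 3 CANNTG matches and CTSG 0 and 1. No window was found for TPSAB1, TPSB2, TPSD1, PRG2 or SRGN, so CPA3 is the only member above the floor that has a window. The windows therefore cannot compare members above the floor with those below it. Of 35116 promoter windows of the same length, 45.6% held at least 1 GATA match and 7.41% at least 3, 61.8% held a CANNTG match and 3.35% at least 4, 9.42% held CATGTG on either strand and 6.34% held CACGTG. Such short matches are common and are a description of the letters, not of binding. Of the mast cell factors that use such sites, MITF read 276 in CD2-positive and 154 in CD2-negative cells (log2 difference 0.84), and GATA2 read 181 in CD2-positive and 164 in CD2-negative cells (0.14).

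Of the 8 probe sets for alpha- and beta-tryptase, 7 lay far above the floor in both subclones and read about 1.5-fold higher in the CD2-positive one. Tryptase is a trypsin-like serine protease that works as a tetramer held together by heparin, and its alpha and beta forms come from TPSAB1 and TPSB2, neighbours on chromosome 16 with nearly identical transcripts. Over the 7 bright probe sets, 4 annotated to TPSAB1, 1 to TPSB2 and 2 to both, the intensities were 3625 to 5029, median 4370, in the CD2-positive subclone and 2197 to 3401, median 2929, in the CD2-negative subclone. Set by set, each read higher in the CD2-positive subclone, by 1.47- to 1.65-fold.

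Between sets, the log2 difference averaged 0.62 with an SD of 0.06 over 7 probe sets, which is a spread of probes on 1 pair of arrays and not of cultures. The lowest was that of 205683_x_at, with 4370 in CD2-positive and 2969 in CD2-negative cells (0.56). The highest was that of 207741_x_at, with 3625 in CD2-positive and 2197 in CD2-negative cells (0.72). Both are annotated to the same TPSAB1 transcript. The only set annotated to TPSB2 alone, 207134_x_at, read 4415 in CD2-positive and 2929 in CD2-negative cells (0.59), inside the range of the TPSAB1 sets. The shared sets 216474_x_at and 217023_x_at gave 0.56 and 0.67. All 7 identifiers end in _x_at, the maker's mark for probes that can bind several transcripts, so the alpha and beta genes cannot be told apart here.

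One further set annotated to TPSAB1, 216485_s_at, did not show the difference. It read 18 in CD2-positive and 19 in CD2-negative cells, below the floor, and rounding leaves its log2 difference between -0.16 and 0. It carries the same source accession as the shared set 216474_x_at, which read 5029 in CD2-positive and 3401 in CD2-negative cells. The annotation does not say where on the transcript either set lies. The value of 5029 was also the highest on the whole CD2-positive array, whose CD2-negative counterpart peaked at 4784 in another probe set, and all 7 bright tryptase sets were among the 20 highest values of the CD2-positive array while 0 were among those of the CD2-negative array. Values at the upper end of the CD2-positive array are bounded by the distribution that normalisation fixed for both arrays.

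TPSD1 and TPSG1, the outer genes of the same cluster, read under the floor, so their differences are given as values only. TPSD1, which encodes delta-tryptase, a shortened form with little activity, read 17 in CD2-positive and 13 in CD2-negative cells (log2 difference 0.39, or 0.29 to 0.49 within rounding, and 0.19 with 16 added to both intensities). TPSG1, which encodes gamma-tryptase, a form with a membrane anchor, read 48 in CD2-positive and 32 in CD2-negative cells (0.58, or 0.55 to 0.62 within rounding, and 0.42 with 16 added). Cross-binding of other tryptase transcripts to these probes was not tested. In RefSeq's gene order, TPSG1, TPSB2, TPSAB1 and TPSD1 lie in a row on chromosome 16 with 2 uncharacterised loci between them. The 12 genes above the floor around them that are not tryptases (2 lie on the side of the chromosome end) had a median log2 difference of 0.06, with 8 positive and none past 2-fold, and the largest was 0.85.

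**Figure D2:**
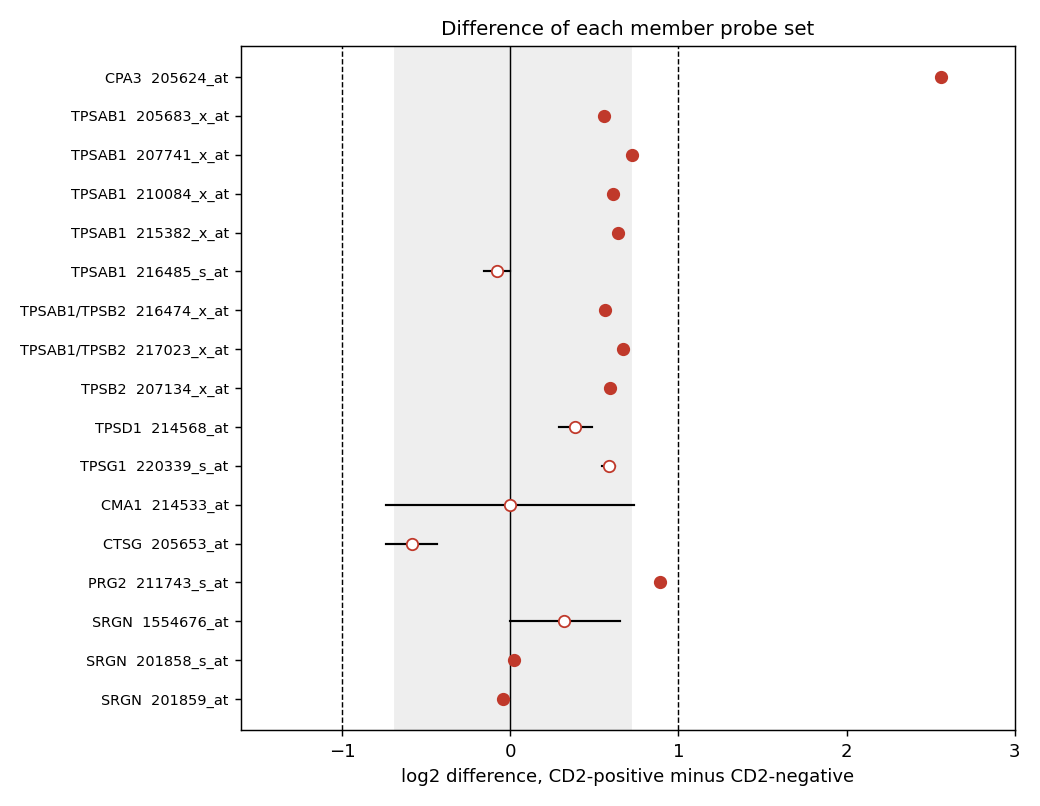
Log2 difference, CD2-positive minus CD2-negative, of each of the 17 probe sets; filled circles reached the floor and open circles did not, horizontal lines give the range that rounding to whole numbers allows, the grey band holds the middle 95% of all probe sets above the floor (-0.68 to 0.72) and dashed lines mark 2-fold. CPA3 and PRG2 lie outside the band, and the 7 tryptase sets lie near its upper edge, with 207741_x_at just past it. The 2 bright SRGN sets lie near 0.

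Chymase and cathepsin G transcripts were read at or near background. CMA1, which encodes chymase, the chymotrypsin-like protease of connective tissue mast cells, read 2 in both subclones, within the range of the Bacillus probe sets, and rounding alone leaves its log2 difference anywhere between -0.74 and 0.74. CTSG, which encodes cathepsin G, a protease of neutrophils and of chymase-containing mast cells, read 8 in CD2-positive and 12 in CD2-negative cells, a log2 difference of -0.58 below the floor. With 16 added to both intensities it was -0.22. The next genes of this cluster on chromosome 14 are the granzyme genes GZMH and GZMB, for proteases of cytotoxic lymphocytes. GZMH read 3 in CD2-positive and 2 in CD2-negative cells, and GZMB read 57 in CD2-positive and 42 in CD2-negative cells, short of the floor. The 20 nearest genes above the floor around CMA1 had a median log2 difference of 0.01. Neutrophil and promyelocyte markers other than CTSG summed to 41 in CD2-positive and 42 in CD2-negative cells over 11 genes, 9 of them at 4 or less, among them ELANE, PRTN3, AZU1 and MPO.

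PRG2 had the second largest difference of the members. It encodes the precursor of major basic protein, an abundant granule protein of eosinophils that is also made by basophils and some mast cells, with an acidic propiece that can carry glycosaminoglycan. Its probe set 211743_s_at read 2213 in CD2-positive and 1194 in CD2-negative cells, a 1.85-fold difference (log2 difference 0.89), and 1.54% of probe sets above the floor had a larger positive difference. By gene it stood 57th of 3564. It was short of 2-fold as deposited and past it, at 1.07, when differences were centred on the hybridisation controls. No second probe set measured it. The 20 nearest genes on chromosome 11 had a median of 0.01 and a range from -0.43 to 0.51.

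None of the other eosinophil markers reached the floor. PRG3, the close homologue of PRG2, read 2 in CD2-positive and 3 in CD2-negative cells, the eosinophil peroxidase gene EPX read 3 in both, and RNASE2, for eosinophil-derived neurotoxin, read 2 in both. Over the 7 eosinophil markers other than PRG2, 5 were at 4 or less in both subclones, none reached the floor, and they summed to 97 in CD2-positive and 58 in CD2-negative cells. Most of that sum came from SIGLEC8, a receptor that mast cells share with eosinophils, with 63 in CD2-positive and 32 in CD2-negative cells, and from IL5RA, with 23 in CD2-positive and 13 in CD2-negative cells.

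SRGN, the proteoglycan core gene, read nearly alike in the subclones. Set 201858_s_at read 1889 in CD2-positive and 1862 in CD2-negative cells (log2 difference 0.02), and set 201859_at read 1149 in CD2-positive and 1185 in CD2-negative cells (-0.04). Their signs differ, and the gap between them is smaller than 0.13, the SD of 1 probe set's log2 difference as estimated from 937 genes with several sets above the floor. The third set, 1554676_at, read 5 in CD2-positive and 4 in CD2-negative cells, near background. When centred on the hybridisation controls, the difference of 201858_s_at was 0.20. That the core transcript did not differ is not shown by 1 pair of arrays. The 20 nearest genes on chromosome 10 had a median of -0.02.

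The brightness of these sets matters for reading their differences, since bright probe sets varied less between the arrays. Of the 263 probe sets with a mean log2 intensity of 10 or more, a level chosen after the values were seen, 10 were member sets. Over the other 253 the middle 95% of log2 differences lay between -0.36 and 0.34, and over all 263 between -0.36 and 0.58. At this level 7 sets, 2.66% of the 263, were at least 1.5-fold higher in the CD2-positive subclone and none was at least 1.5-fold lower. Of the 7, 5 were tryptase sets, which can bind the same transcripts and are not separate observations, and 1 was PRG2. The other was a set of VIM, the intermediate filament gene vimentin, with 1580 in CD2-positive and 1029 in CD2-negative cells. Over all levels above the floor, 4.71% of probe sets were at least 1.5-fold higher. Of the 11 member sets 7 were, including the same 5 tryptase sets.

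**Figure D3:**
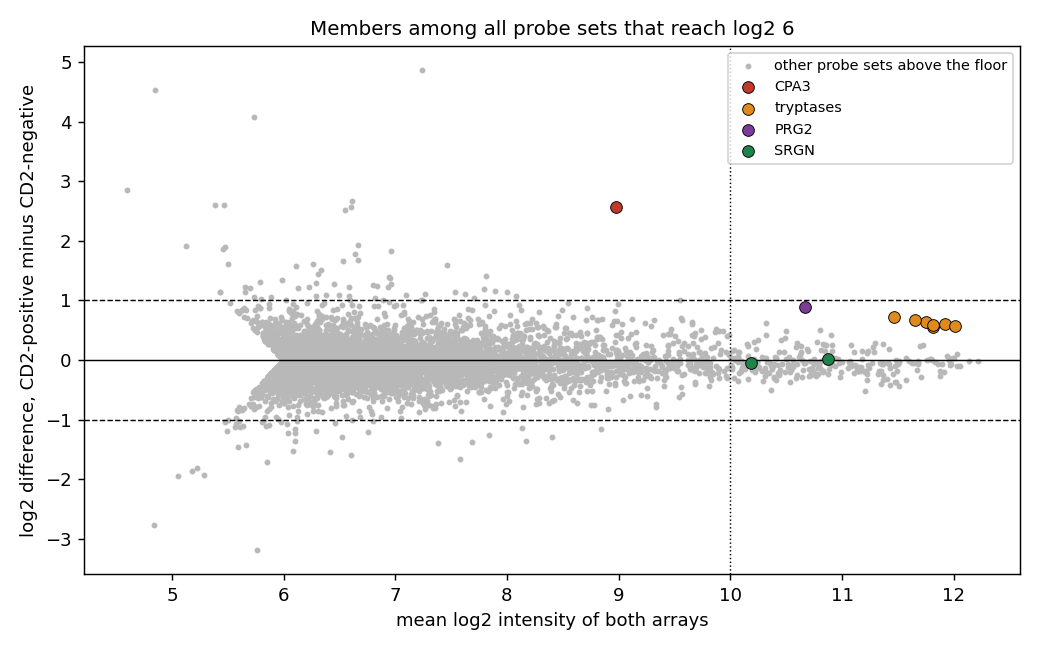
Log2 difference (CD2-positive minus CD2-negative) against the mean log2 intensity of both arrays for the probe sets above the floor, with the 11 member sets coloured. Dashed lines mark 2-fold and the dotted line a mean of 10; tryptase and PRG2 sets lie above most bright probe sets, SRGN sets lie at 0, and CPA3 stands at 2.56.

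Genes that make, process or oppose the granule proteases, or are related to them, were examined as 7 lists with 36 genes above the floor. Of these genes 1 was past 2-fold on the higher side and none on the lower, counts too small to be set apart from the shares over all genes given above. Cathepsins and related activating enzymes had 5 of 15 measured genes above the floor, all 5 positive (against 41.9% of all genes above the floor), with a median log2 difference of 0.44 and none past 2-fold. CTSD, the aspartic protease cathepsin D, read 103 in CD2-positive and 53 in CD2-negative cells (0.96). CTSA, the lysosomal carboxypeptidase cathepsin A, read 308 in CD2-positive and 162 in CD2-negative cells (0.93). CTSB followed at 0.44, while CTSL (0.04) and CTSS (0.02) lay close to 0. CTSC, named after its value was seen because its product trims the propeptides of tryptase and chymase, was under the floor with 52 in CD2-positive and 61 in CD2-negative cells.

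Protease inhibitors had 6 of 20 measured genes above the floor, with a median of 0.36 and none past 2-fold. All 6 were positive, against 41.9% of all genes above the floor. SERPINB1, an inhibitor of neutrophil-type serine proteases that also acts on cathepsin G and chymase, read 274 in CD2-positive and 175 in CD2-negative cells (0.65). The cysteine protease inhibitors CST3 (0.45) and CSTB (0.40) were next, followed by SPINT1 (0.32) and TIMP1 (0.13), and the lowest of the 6 lay at 0.006. Both medians fell when the floor was removed, to 0.02 for cathepsins and 0.00 for inhibitors. With a floor of log2 7 that of the cathepsins was 0.036 and that of the inhibitors 0.40. Centred on the hybridisation controls, that of the inhibitors was 0.54.

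The enzymes that build glycosaminoglycan chains on cores such as serglycin had 9 of 41 measured genes above the floor, 6 positive and 3 negative, with a median of 0.13 and none past 2-fold. That median was 0.38 at a floor of log2 7, 0.31 when centred on the hybridisation controls and 0.041 with the mean of a gene's probe sets. PAPSS1, which makes the sulfate donor, read 157 in CD2-positive and 113 in CD2-negative cells (0.47). CHST15, which adds the second sulfate of the chondroitin sulfate E that cultured mast cells make, read 439 in CD2-positive and 321 in CD2-negative cells (0.45). HS6ST1, a heparan sulfate sulfotransferase gene, had a difference of 0.38. On the negative side, SLC35B3, a carrier of the sulfate donor, read 62 in CD2-positive and 86 in CD2-negative cells (-0.47), and HS3ST2 had a difference of -0.36. Of the other proteoglycan cores, 1 of 22 measured genes, CD44, reached the floor, with 1091 in CD2-positive and 1058 in CD2-negative cells (0.04).

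Genes of granule transport and sorting went both ways, with 13 of 24 measured genes above the floor, 6 positive and 7 negative, a median of -0.05 and none past 2-fold. The median was 0.14 when centred on the hybridisation controls and -0.14 with the mean of a gene's probe sets. VAMP7, a vesicle fusion protein gene, read 197 in CD2-positive and 327 in CD2-negative cells (-0.73). RAB27B, for a small GTPase of secretory granules, read 66 in CD2-positive and 101 in CD2-negative cells (-0.61), and LAMP2, for a lysosomal and granule membrane protein, had a difference of -0.52. M6PR, the gene of a receptor that delivers enzymes to lysosomes, had a difference of 0.24, and STX3 had one of 0.22. CD63, a granule membrane marker, read 973 in CD2-positive and 846 in CD2-negative cells (0.20).

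Few homologues of the granule proteases were above the floor. Of 13 measured carboxypeptidase genes other than CPA3 only CPQ, for an enzyme of plasma and lysosomes, reached it, with 65 in CD2-positive and 40 in CD2-negative cells (0.70). Of 10 other leukocyte serine protease genes only GZMM did, as given above, and it was the only gene of the 7 lists past 2-fold.

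**Figure D4:**
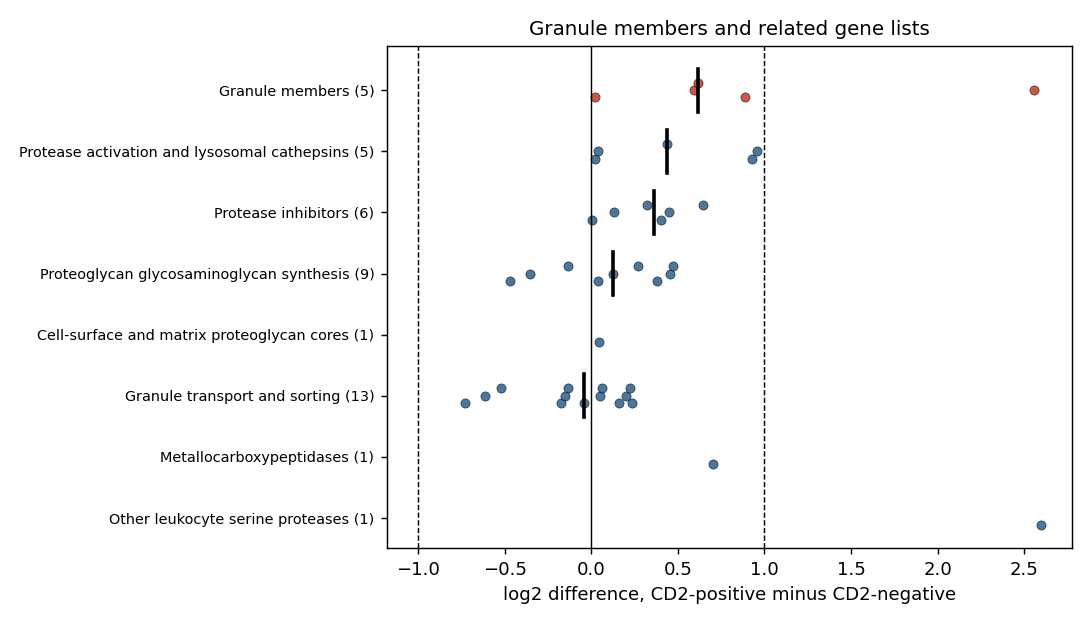
Log2 difference (CD2-positive minus CD2-negative) of each gene above the floor, for the 5 granule members and the 7 related lists, with the number of genes in brackets. Black bars are medians of lists with 3 or more genes and dashed lines mark 2-fold; CPA3 and GZMM are the genes past it, and transport genes lie on both sides of 0.

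Other mast cell genes give the setting of these values. KIT, the stem cell factor receptor, read 1373 in CD2-positive and 1328 in CD2-negative cells (log2 difference 0.05), and HDC, which makes histamine, read 1715 in CD2-positive and 1219 in CD2-negative cells (0.49). Of the 7 mast cell markers that are not granule members, 6 reached the floor, and the 7 summed to 4263 in CD2-positive and 3349 in CD2-negative cells. Most of each sum was KIT and HDC, so it says little about the other markers. Of these, MITF and GATA2 are given above, and HPGDS and SLC18A2 are not given singly. FCER1A, the marker below the floor, read 27 in CD2-positive and 8 in CD2-negative cells (1.75). Of markers of other cells, all 6 monocyte and macrophage genes were at 4 or less and summed to 15 in CD2-positive and 14 in CD2-negative cells. Of 13 T and NK cell genes 10 were at 4 or less, and they summed to 1152 in CD2-positive and 1160 in CD2-negative cells. Nearly all of that sum was PRF1, the gene of the pore-forming protein perforin, with 1060 in CD2-positive and 1081 in CD2-negative cells. Basophil markers, which mast cells partly share, summed to 227 in CD2-positive and 189 in CD2-negative cells over 6 genes, of which GATA2 alone reached the floor. In RNA of whole cultures, more cells with granule transcripts and more transcript per cell cannot be told apart.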

How the data were processed

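Each of 2 HMC1 subclones was measured on 1 array. The deposited values were intensity values per probe set, which the authors had made with Affymetrix Expression Console 1.1 and its RMA method, according to the submitters' processing notes. The linear scale and the rounding to whole numbers were seen in the values. Not given in the sources used here are the type of background correction and the genome build. Quantile normalisation, a part of RMA, makes the arrays share 1 distribution, so differences are relative to the other probe sets, and low values depend on the background correction. The number of arrays limits the precision.

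Values were converted to log2 and subtracted, with no test. Members were matched by Entrez identifier. Of the probe sets, 41097 carried 1 gene symbol, 1801 several and 11777 none in the platform annotation of 2016. Symbols were updated through RefSeq's gene table for 41043 of the 41097. For each gene the brightest probe set by mean log2 over both arrays was used, among sets annotated to 1 gene. The floor was log2 6. Named genes were all members, the list genes past 2-fold, up to 5 list genes above the floor farthest from 0, KIT, HDC, MITF, GATA2, CD2, PRG3, GZMB, GZMH and the 5 genes nearest to CPA3 in log2 difference. Further marker genes given with values were chosen after their values were seen. Members, 7 related lists and 6 marker lists were chosen with earlier results of these data known. The gene-level rule was also run on simulated arrays, with changes larger than 2-fold added to bright genes. That run held no variation between cultures, so it cannot show how the rule performs with 1 array per subclone. Alternatives were other floors, fold rules, probe set choices, centrings, a lowess correction with a span of 0.3, and 16 added before log2. Protein sequences were not used here. Python 3.11.15, pandas 2.3.3 and statsmodels 0.14.6 were used.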

Additional observations from a re-analysis of the deposited data

How the results depend on the processing

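With 1 array per subclone nothing can be left out, and signals near background are limited by rounding and by an unknown background correction. CPA3 stayed past 2-fold in all 6 of its alternatives (2.47 to 2.74). Those that changed the choice of probe sets could only return its main value, 2.56, because it has 1 probe set. Its highest value came when differences were centred on the hybridisation controls. That centring gave 0.80 for TPSAB1, 0.77 for TPSB2, 1.07 for PRG2 (past 2-fold there only), 0.20 for SRGN and 0.80 for the median of member probe sets. It gave medians of 0.31 for glycosaminoglycan synthesis (0.041 with the mean of a gene's probe sets), 0.62 for cathepsins, 0.54 for inhibitors and 0.14 for granule transport. It moved the median of all genes above the floor from -0.05 to 0.14 and gave 71 genes higher and 14 lower, 83.5% of calls higher against 61.4%. Lowess gave 51 and 17 (75.0%). Its trend was fitted above the floor, so no lowess value is reported for members below it. With only plain probe sets of 1 gene the member median was 1.26, over CPA3 and 1 SRGN set, because no tryptase set remains. At a floor of log2 7 the medians were 0.38 for glycosaminoglycan synthesis and 0.036 for cathepsins, and with no floor 0.020 for cathepsins and 0.00 for inhibitors. Counts of genes higher and lower, 43 and 27 as reported, were 77 and 48 at a floor of log2 5, 24 and 8 at log2 7, 307 and 380 with no floor, 151 and 134 at 1.5-fold, 15 and 7 at 3-fold, 26 and 13 with the mean of a gene's probe sets, and 31 and 14 with 16 added before log2. Fewer genes or probe sets enter at higher floors and larger folds; for the other changes the cause was not tested. The sign of SRGN turned (-0.04) with plain sets. No paired analysis was possible because each group holds 1 sample. Lists with fewer than 3 genes above the floor have no median.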
